A study of Daphnia magna with 24 samples.

Results

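The features described here are 112 array features with no protein name that were brighter after dissolved silver (Ag+) and after short silica-coated silver nanowires (S-SiO2-NW) than in unexposed animals. They were selected on these measurements: on the log2 scale, all 4 Ag+ values and all 4 S-SiO2-NW values of a member lie above all 4 Control values, and both differences of group means from Control are at least 0.7. They also carry no protein description in the authors' deposited table. They make up 0.781% of the 14338 features on the array and 0.841% of the 13314 features without a description. The numeric part of the rule alone was met by 169 features (1.18%), of which the other 57 have a description. Because the Ag+, S-SiO2-NW and Control values chose the members, those differences are given as a description and are not tested.

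Arrays of the series record RNA from whole bodies of Daphnia magna, a water flea of ponds and lakes. Exposed animals, about 20 per sample, spent 24 hours with silver at 1/10 of the median lethal concentration (LC50), and Control animals were in medium alone. The groups are Ag+, which is ionic silver, and S-SiO2-NW, L-PVP-NW, S-PVP-NW and L-SiO2-NW, which are nanowires that are short (S) or long (L) and carry a silica (SiO2) or a PVP coat, and Control. Each of the 6 groups has 4 arrays, 24 in all, with 1 dye (Cy3) and 1 sample per array. Silver doses were set separately for each form, so silver mass may differ between groups. In whole bodies, fewer cells of a type and less RNA per cell cannot be told apart. Nothing in the labels says whether replicates came from separate cultures, and the p-values measure the spread between these arrays.

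Silver ions block sodium uptake across the gills of freshwater animals and bind to thiol groups in proteins. Cells answer metal stress with metal-binding proteins, antioxidant enzymes and chaperones. In crustaceans many transcripts have no recognised relative among described proteins, and such transcripts may encode lineage-restricted proteins or untranslated ends of messengers. For the members nothing of this kind is known from the sources used here, so they are described by brightness, by level on each array and by the few sequences on record.

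Sequence was on record for 30 of the 112 members, all without a protein description, and the other 82 are outside the deposited table. The table lists 50 bases for 27 of them and 60 bases for 3. It also gives the length of the longer contig, which ran from 53 to 538 bases with a median of 136, and the best match among Daphnia pulex assemblies, a related species. For 9 of the 30 (30%) that match had an expectation value (E, the number of equally good matches a database of that size gives by chance) of 0.001 or less, against 333 of all 802 undescribed entries in the table (41.7%) and 48 of the 57 described features that meet the numeric rule (84.2%). Median contig length was 187 bases in those undescribed entries and 291 in those described features, so the shares are not compared at like length. A description itself comes from a database match, so the share of the described features is in part built in. GC content of the listed bases was 38.3 to 56%, with a median of 49.2% in members and 48% in all 802 undescribed entries. The first set shown is the 9 members with a Daphnia pulex match, with the bases in the order of the table; the sources used here do not say whether these are the bases of the probe or of the transcript, nor which end is 5′.
DM07937P1: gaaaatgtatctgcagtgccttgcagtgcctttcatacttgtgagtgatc
DM12364P4: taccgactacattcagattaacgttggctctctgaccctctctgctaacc
DM07737P1: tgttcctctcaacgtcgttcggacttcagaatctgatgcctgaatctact
DM12590P1: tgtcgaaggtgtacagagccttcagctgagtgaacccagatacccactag
DM12406P2: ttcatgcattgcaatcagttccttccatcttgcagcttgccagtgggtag
DM11958P4: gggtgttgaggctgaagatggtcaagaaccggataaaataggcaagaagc
DM12516P1: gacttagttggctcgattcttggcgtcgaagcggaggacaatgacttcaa
DM12898P1: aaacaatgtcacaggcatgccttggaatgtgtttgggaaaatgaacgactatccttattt
DM11262P2: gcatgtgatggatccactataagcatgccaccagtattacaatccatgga
The second set has no such match and is shown because its members are described one by one below.
DM10998P3: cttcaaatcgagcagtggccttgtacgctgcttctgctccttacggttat
DM13184P1: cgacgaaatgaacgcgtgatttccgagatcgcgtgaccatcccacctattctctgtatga
DM12524P2: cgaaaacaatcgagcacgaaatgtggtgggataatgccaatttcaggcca
DM11242P3: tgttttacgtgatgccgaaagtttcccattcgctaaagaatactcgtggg
No 2 of the 30 member sequences share 12 or more bases in a row. The longest run that any member shares with another sequence of the table, on either strand, is 14 bases, between DM10998P3 and DM11244P2.

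Arrays differed in ways that bear on the members. The 1st percentile of intensity, called the floor here, was 45 to 46 in Ag+, 42 to 45.37 in S-SiO2-NW, 41 to 43 in S-PVP-NW and likewise in L-SiO2-NW, 48 to 50 in L-PVP-NW and 46 to 50 in Control. Floors of both silica groups and of S-PVP-NW lie below those of every Control array, and those of L-SiO2-NW and of S-PVP-NW also lie below every L-PVP-NW array, so whatever sets the floor and exposure cannot be told apart in these comparisons. The labels name no slide or scan batch. On Ag+ 2, 310 features read 0 and were treated as missing, none of them a member. Quantile normalisation of the log2 values gives all arrays 1 common distribution.

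Members were brighter than most features. Their mean intensity over the 24 arrays had a median of 226 and a middle range of 156 to 538, against a median of 67.2 over all features. These means include the Ag+ and S-SiO2-NW arrays, on which the selection asked for high values, so part of this follows from the choice of members. The dimmest member, DM12602P2, averaged 86, which is still above 61.7% of all features, and the brightest, DM01906P1, averaged 38813. Of the 112 members, 19 averaged 1000 or more and 49 averaged under 200. The 57 described features that meet the numeric rule were brighter still, with a median of 430.

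Many Control values lay near the floor of the arrays. A value is called dim here when it is under 2 times its array's lower quartile, which was 50 to 58. No member was dim on all Ag+ or all S-SiO2-NW arrays, 15 were dim on all 4 L-PVP-NW arrays, 24 were dim on all 4 Control arrays and 71 were dim on at least 1 Control array. For 37 members no array was dim. On Ag+ arrays 105 to 112 members stood above the dim limit, on S-SiO2-NW arrays 108 to 112, and on Control arrays 48 to 88, with Control 4 the highest. The selection asked for this direction, so these counts follow in part from it. Over all features 28.3 to 33.1% stood above the limit on Ag+ arrays and 30.3 to 36.9% on S-SiO2-NW arrays. On Control arrays it was 24.5 to 31.6%, again with Control 4 the highest.

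By the selection all differences from Control were positive in both exposures. The median was 0.99 in Ag+ (0.7 to 2.16) and 0.85 in S-SiO2-NW (0.7 to 1.73), on the log2 scale. The Ag+ difference was the larger for 83 members and the S-SiO2-NW difference for 29. Next to the 0.7 limit, the smaller difference was 0.7006 in DM00660P3, 0.7007 in DM01472P1 and 0.7008 in DM12226P1, just inside. Just outside, it was 0.6989 in DM03887P2, 0.6965 in DM03259P1 and 0.6951 in DM00395P1.

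The brightest members show how the selection works on the deposited intensities. DM01906P1 read 41292, 39335, 40722 and 46251 on the Ag+ arrays, 34900, 59820, 43520 and 54160 on the S-SiO2-NW arrays, and 24818, 35097, 23552 and 46925 on the Control arrays. Control 4 is above most exposed arrays in intensity and falls below them only after normalisation. Before normalisation 90 of the 112 members had all Ag+ intensities above all Control intensities, and 108 had all S-SiO2-NW intensities above them. DM09292P1 read 24037, 20407, 22793 and 20259 in Ag+, 20023, 28294, 25093 and 22198 in S-SiO2-NW, and 10565, 10803, 7738 and 22036 in Control. Here too Control 4 overlaps the exposed arrays in intensity, and the differences were 1.17 in Ag+ and 0.89 in S-SiO2-NW. The other bright members, DM07937P1, DM02362P2, DM12364P4, DM08363P1, DM12777P2 and DM05138P3, averaged between 3033 and 10340, and their Ag+ differences ran from 0.79 to 2.16.

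Members with the largest differences ranged from dim to bright. DM12364P4 read 4931, 3712, 9602 and 11845 in Ag+, 4248, 3906, 2453 and 12371 in S-SiO2-NW, and 1102, 1689, 932 and 1560 in Control. The exposed arrays do not overlap the Control arrays, but they spread widely among themselves, and the differences were 2.16 in Ag+ and 1.31 in S-SiO2-NW. DM11242P3 read 204, 308, 549 and 752 in Ag+, 551, 489, 383 and 1175 in S-SiO2-NW, and 78, 141, 113 and 205 in Control. Its lowest Ag+ array is level with its highest Control array in intensity, and its differences were 1.37 in Ag+ and 1.73 in S-SiO2-NW. DM12565P2 read 275, 231, 350 and 322 in Ag+, 361, 252, 244 and 254 in S-SiO2-NW, and 60, 89, 76 and 158 in Control, where 3 of 4 arrays were dim. The exposed arrays are close together there and well above Control, with differences of 1.54 and 1.28. DM12700P1 and DM10964P1 had differences of 1.20 and 1.26 in Ag+ and 1.27 and 1.18 in S-SiO2-NW. DM13184P1 had 1.46 in each, and DM07937P1 0.83 in Ag+ and 1.17 in S-SiO2-NW, but Control 3 is the lowest array of both. Without it, an alternative added after the data were seen, the differences were 0.93 and 0.93 in DM13184P1 and 0.33 and 0.66 in DM07937P1, and 92 of the 112 members kept both differences at 0.7 or more. The 3 dimmest members, DM12602P2, DM11321P1 and DM00776P2, averaged 55.5, 61.5 and 65.2 in Control and were dim on all 4 Control arrays, so their Control level is only a bound.

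**Figure D1:**
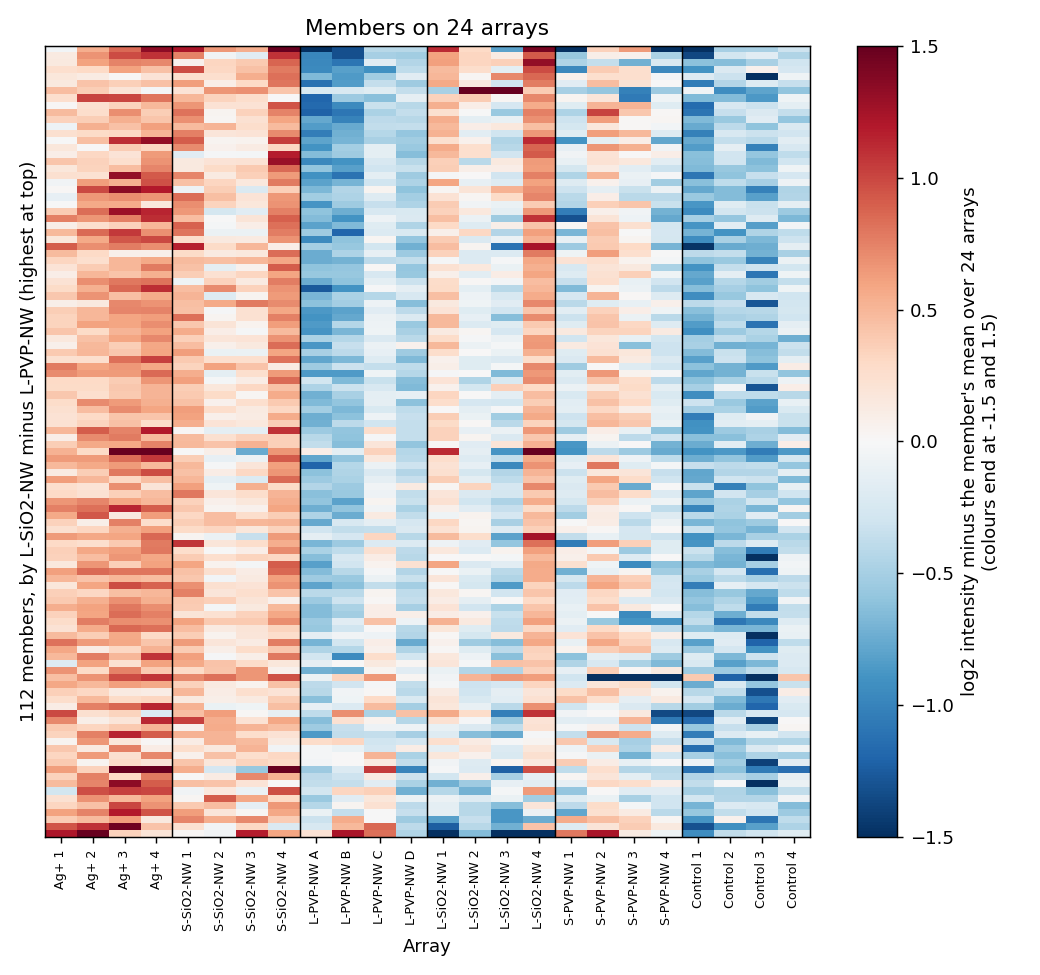
Each row is 1 of the 112 members and each column 1 of the 24 arrays, grouped with Control at the right; colour is log2 intensity minus the member's mean over the 24 arrays, and rows are ordered by L-SiO2-NW minus L-PVP-NW. The red Ag+ and S-SiO2-NW columns and the blue Control columns follow from the selection, while S-PVP-NW 2 and L-SiO2-NW 4 are the reddest columns of their groups and L-PVP-NW A the bluest of its own.

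Among the 3 exposures that the selection did not use, most members stood higher with the long silica wires and the short PVP wires than with the long PVP wires. Differences of group means between these 3 groups use no array of the selection, apart from the shared normalisation. The median difference was 0.49 for L-SiO2-NW minus L-PVP-NW (104 of the 112 members positive), 0.35 for S-PVP-NW minus L-PVP-NW (91 positive) and 0.14 for L-SiO2-NW minus S-PVP-NW (78 positive), against -0.01, 0.01 and -0.01 over all features. Of these 3 groups, L-SiO2-NW had the highest mean for 76 members, S-PVP-NW for 32 and L-PVP-NW for 4. Comparisons with Control share their Control arrays with the selection, which asked for low Control values, so part of any positive difference is fixed by the choice of members. There the median difference was 0.62 in L-SiO2-NW and 0.46 in S-PVP-NW, against 0.00 and 0.01 over all features, and 0.09 in L-PVP-NW, against 0.00. Above Control were 81 of the 112 members in L-PVP-NW, 106 in S-PVP-NW and 110 in L-SiO2-NW.

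**Figure D2:**
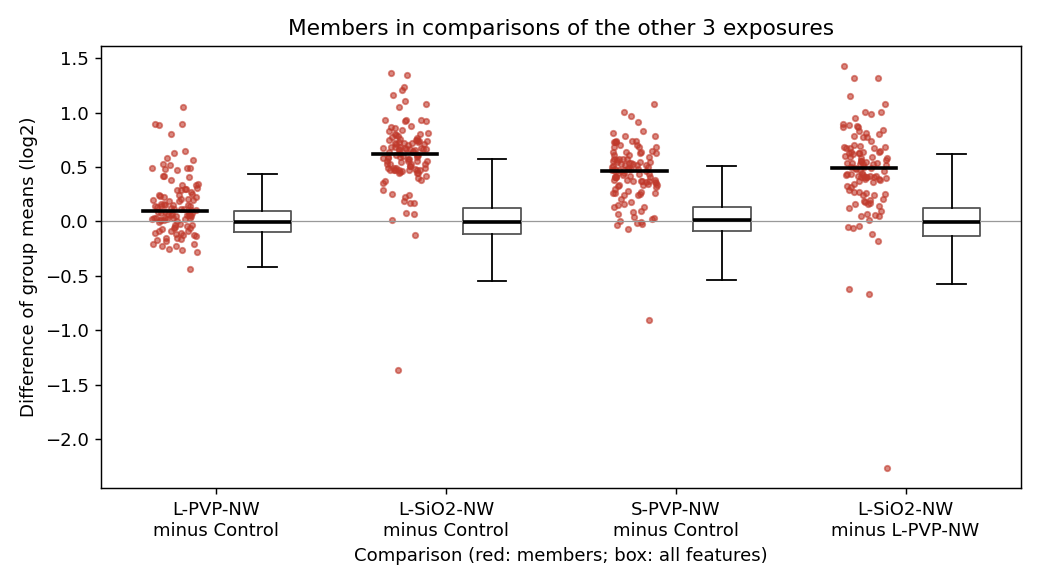
Red points are the 112 members, with the black line at their median; boxes show all 14338 features (middle 50%, whiskers from the 5th to the 95th percentile); the vertical axis is the difference of group means on the log2 scale. The members' medians of 0.46 in S-PVP-NW, 0.62 in L-SiO2-NW and 0.49 in L-SiO2-NW minus L-PVP-NW lie above the boxes, and the median of 0.09 in L-PVP-NW does not.

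Few single members passed the test. Differences were tested with limma across all features, with Benjamini-Hochberg adjustment over all 14338 at 0.05. In the comparisons between groups outside the selection, 15 members were higher and 1 lower in L-SiO2-NW than in L-PVP-NW, where 2.72% of all features were higher and 2.11% lower. In S-PVP-NW 2 members were higher and 1 lower than in L-PVP-NW (0.802% and 1.44% of all features), and in L-SiO2-NW 4 were higher and 2 lower than in S-PVP-NW (1.51% and 1.48%). Fitted on only the arrays compared, 4, 1 and 5 members passed in these 3 comparisons, in the same order. Of all features, 355, 188 and 652 were then called. Counts against Control are a description only, since the selection used those Control arrays and nothing about the members is read from them. There 10 members passed as higher in L-SiO2-NW, where 0.6% of all features were called higher and 0.37% lower, and 2 in S-PVP-NW, where 0.286% were called higher and 1.09% lower, with no member called lower. In L-PVP-NW none of the members passed, with 0.0279% of all features called higher and 0% lower. At an unadjusted p under 0.05, 9 members were above Control and 0 below in L-PVP-NW, against 6.1% and 3.17% of all features. At least 1 of the 6 comparisons was passed by 23 members, and 89 passed none.

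Separation from the same Control arrays is likewise a description. All 4 exposed arrays lay above all 4 Control arrays for 32 members in L-SiO2-NW (4.87% of all features), 33 in S-PVP-NW (5.16%) and 5 in L-PVP-NW (2.08%). A difference of 0.7 or more, the size asked of Ag+ and S-SiO2-NW, was reached by 5 members in L-PVP-NW, where 1.93% of all features reached it, 16 in S-PVP-NW (2.23%) and 39 in L-SiO2-NW (3.24%).

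The S-PVP-NW and L-SiO2-NW counts rest on few arrays. The array floor as a covariate was an alternative added after the data were seen. With it, no member passed in S-PVP-NW or L-SiO2-NW against Control or against L-PVP-NW. The members' medians were then 0.46 for L-SiO2-NW minus Control, 0.27 for S-PVP-NW minus Control, 0.27 for L-SiO2-NW minus L-PVP-NW and 0.13 for S-PVP-NW minus L-PVP-NW. In the same order, 0, 1, 0 and 0 of all features were called, against 139, 198, 692 and 322 without the covariate. The loss of calls was therefore not confined to the members. Without L-SiO2-NW 4 the L-SiO2-NW count was 0 against Control and 3 against L-PVP-NW, with 19 and 277 of all features called. Without Control 2 or Control 3 the first count was 0, with 18 and 24 of all features called. Without L-PVP-NW A, L-PVP-NW B or L-SiO2-NW 1 the second was 4, 3 and 5, with 249, 200 and 316 of all features.

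DM12406P2, which matches a Daphnia pulex assembly, was higher in L-SiO2-NW than in both PVP groups. It read 985, 515, 542 and 1400 in L-SiO2-NW, against 162, 165, 512 and 241 in L-PVP-NW, 326, 442, 325 and 337 in S-PVP-NW, and 211, 242, 209 and 406 in Control. All L-SiO2-NW arrays are above all arrays of those 3 groups, although L-PVP-NW C comes close to the lowest of them. The log2 difference was 1.32 ± 0.23 from L-PVP-NW (SE, n = 4 arrays per group; limma adjusted p = 0.00402), 1.10 ± 0.23 from S-PVP-NW (adjusted p = 0.0133), and both calls were kept in all 24 fits that leave out 1 array. From Control it differed by 1.16 ± 0.23.

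DM12524P2 was higher in L-SiO2-NW than in S-PVP-NW. It read 599, 1575, 1812 and 1012 in L-SiO2-NW, against 414, 489, 344 and 351 in S-PVP-NW, 325, 360, 658 and 316 in L-PVP-NW, and 371, 253, 217 and 428 in Control. The L-SiO2-NW arrays spread widely and lie above all S-PVP-NW and Control arrays, while L-PVP-NW C lies above L-SiO2-NW 1. The difference was 1.42 ± 0.32 from S-PVP-NW (limma adjusted p = 0.0198, kept in 21 of the 24 fits with 1 array left out). It was 1.01 ± 0.32 from L-PVP-NW and did not pass (adjusted p = 0.0697). From Control it differed by 1.35 ± 0.32, the largest among the 10 members counted there.

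DM09687P4 and DM12452P2 were higher in L-SiO2-NW than in L-PVP-NW. DM09687P4 read 407, 201, 219 and 379 in L-SiO2-NW, 92, 106, 189 and 125 in L-PVP-NW, and 102, 137, 98 and 198 in Control. Its lowest L-SiO2-NW array is only just above L-PVP-NW C and Control 4, and the difference from L-PVP-NW was 0.88 ± 0.16 (limma adjusted p = 0.00478), kept in all 24 fits with 1 array left out. DM12452P2 read 294, 170, 209 and 408 in L-SiO2-NW, 98, 112, 188 and 105 in L-PVP-NW, and 103, 105, 81 and 149 in Control. L-PVP-NW C overlaps with L-SiO2-NW 2 there, and the difference from L-PVP-NW was 0.74 ± 0.18 (adjusted p = 0.0261, kept in 20 fits). DM12516P1 read 267, 197, 253 and 407 in L-SiO2-NW, 93, 116, 229 and 103 in L-PVP-NW, and 96, 108, 76 and 153 in Control. L-PVP-NW C again overlaps, and its difference of 0.78 ± 0.23 from L-PVP-NW did not pass (adjusted p = 0.0585). From Control, DM09687P4 differed by 0.79 ± 0.16, DM12452P2 by 0.93 ± 0.18 and DM12516P1 by 1.08 ± 0.23.

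Against L-PVP-NW, among the members that passed, the largest rises beside DM12406P2 were in DM07595P3 and DM00204P4. DM07595P3 read 454, 238, 219 and 533 in L-SiO2-NW and 88, 82, 177 and 118 in L-PVP-NW, where 2 arrays were dim; the groups do not overlap (1.32 ± 0.31; limma adjusted p = 0.0191). DM00204P4 read 1691, 952, 780 and 2128 in L-SiO2-NW and 303, 367, 607 and 470 in L-PVP-NW, without overlap and with no dim array (1.16 ± 0.29; adjusted p = 0.028). DM00232P3 differed by 1.01 ± 0.23 (adjusted p = 0.0145) and the bright DM08363P1 by 0.99 ± 0.26 (adjusted p = 0.0332). DM11242P3, with a larger difference of 1.43 ± 0.54, did not pass (adjusted p = 0.132). Each of the 4 calls was lost without L-SiO2-NW 4, L-SiO2-NW 1, L-PVP-NW A or L-PVP-NW B.

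In S-PVP-NW 2 members rose against L-PVP-NW, and both are also the 2 counted against Control. DM01760P1 read 2348, 2736, 2559 and 1667 in S-PVP-NW, against 819, 919, 1985 and 1004 in L-PVP-NW and 929, 1077, 576 and 1985 in Control. S-PVP-NW 4 lies below L-PVP-NW C and Control 4 in intensity, and the other S-PVP-NW arrays lie above all of them. The difference was 0.68 ± 0.16 from L-PVP-NW (limma adjusted p = 0.0356) and 0.69 ± 0.16 from Control. DM06530P1 read 167, 235, 226 and 150 in S-PVP-NW, against 76, 90, 176 and 95 in L-PVP-NW and 79, 99, 88 and 164 in Control. It too overlaps with L-PVP-NW C and Control 4 in intensity, and differed by 0.77 ± 0.18 from L-PVP-NW (adjusted p = 0.0329) and 0.73 ± 0.18 from Control. Neither call against L-PVP-NW was kept when any 1 of the S-PVP-NW arrays, L-PVP-NW A or L-PVP-NW B was left out.

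In L-PVP-NW the 2 members with the smallest p against Control were DM10364P2 and DM11027P2, and neither passed. DM10364P2 read 115, 195, 417 and 113 in L-PVP-NW and 74, 93, 82 and 149 in Control, so the groups overlap, and the difference was 1.05 ± 0.31. DM11027P2 read 309, 350, 876 and 250 in L-PVP-NW and 236, 258, 224 and 373 in Control, which also overlap (0.53 ± 0.17). In both, L-PVP-NW C stands far above the other 3 arrays of its group.

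A few members parted from the rest. DM10998P3 read 2259, 2855, 1629 and 1446 in Ag+, 977, 1355, 2476 and 2251 in S-SiO2-NW, 792, 1735, 2370 and 490 in L-PVP-NW, 288, 556, 218 and 260 in L-SiO2-NW, 1715, 2664, 1348 and 817 in S-PVP-NW, and 337, 604, 477 and 935 in Control. It is high in Ag+, S-SiO2-NW and S-PVP-NW, and in L-PVP-NW it spreads from 490 to 2370. It is lowest in L-SiO2-NW, the group in which 104 of the 112 members stood above L-PVP-NW. It was lower in L-SiO2-NW than in L-PVP-NW by -2.27 ± 0.43 (limma adjusted p = 0.00599) and than in S-PVP-NW by -2.33 ± 0.43 (adjusted p = 0.00816), and both calls were kept in all 24 fits with 1 array left out. L-SiO2-NW 2 overlaps with L-PVP-NW D in intensity, while no L-SiO2-NW array reaches S-PVP-NW. Against Control it differed by -1.37 ± 0.43 in L-SiO2-NW and did not pass (adjusted p = 0.111).

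DM13184P1 departs in the other short wire. It read 906, 373, 260 and 275 in S-PVP-NW, against 707, 1054, 2389 and 747 in L-PVP-NW, 1465, 1437, 1833 and 2081 in L-SiO2-NW, and 1055, 382, 154 and 1592 in Control. S-PVP-NW is the lowest of the exposures, and the Control arrays spread from 154 to 1592. It was lower in S-PVP-NW than in L-PVP-NW by -1.81 ± 0.46 (limma adjusted p = 0.0458; kept in 5 of 24 fits with 1 array left out) and higher in L-SiO2-NW than in S-PVP-NW by 2.01 ± 0.46 (adjusted p = 0.0225; kept in 18). DM12332P3 read 68, 82, 59 and 69 in L-SiO2-NW, all dim, and 159, 175, 158 and 102 in S-PVP-NW, so it was at least 1.45-fold lower in L-SiO2-NW (-1.04 ± 0.23; adjusted p = 0.0183). DM05138P3 differed by 0.71 ± 0.17 in L-SiO2-NW from S-PVP-NW (adjusted p = 0.0263).

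**Figure D3:**
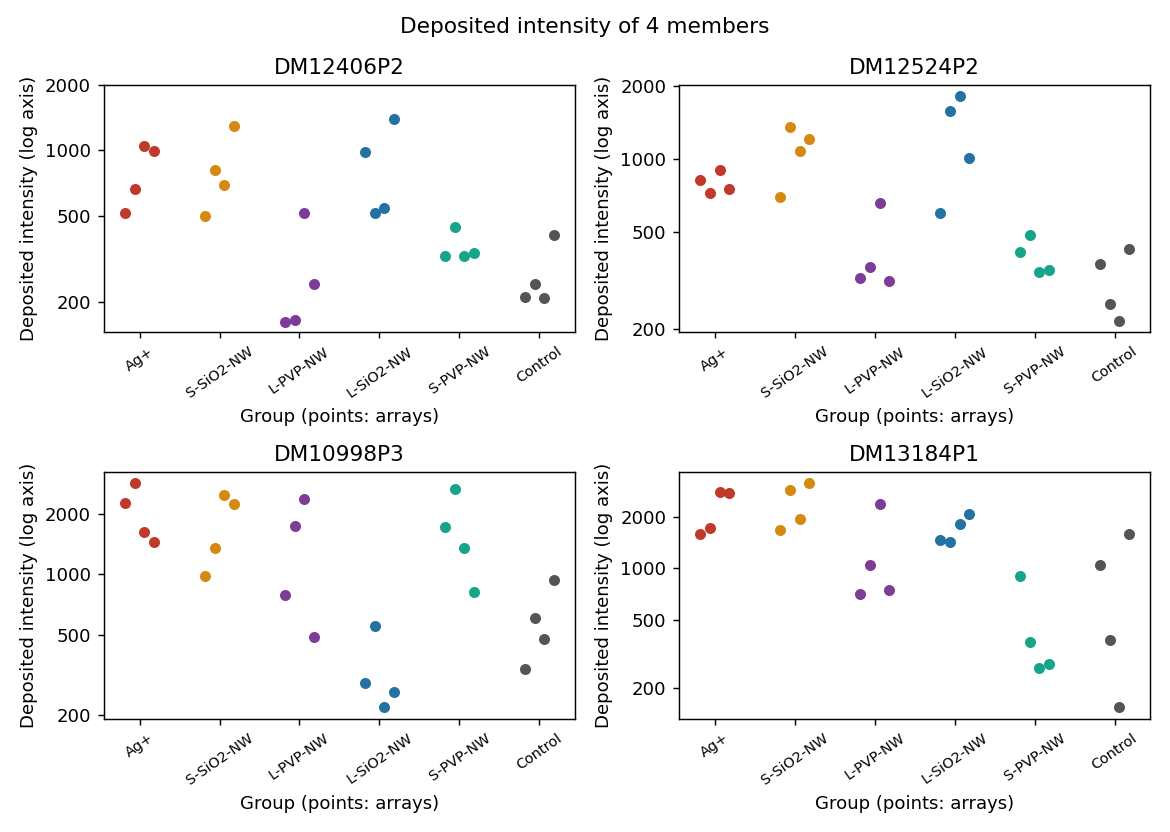
Deposited intensity on a log axis for DM12406P2, DM12524P2, DM10998P3 and DM13184P1, with 1 point per array and Control at the right. DM12406P2 is high in L-SiO2-NW (515 to 1400), DM12524P2 is high there too (599 to 1812) with L-PVP-NW C above its lowest array, DM10998P3 is lowest in L-SiO2-NW (218 to 556), and DM13184P1 is low in S-PVP-NW (260 to 906).

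Within groups the members moved together from array to array. Each member was centred on its mean over the 24 arrays, and the mean over members gives 1 level per array. That level was 0.54 ± 0.14 in Ag+ (SD, n = 4), 0.37 ± 0.19 in S-SiO2-NW, 0.09 ± 0.33 in L-SiO2-NW, -0.09 ± 0.23 for S-PVP-NW, -0.38 ± 0.23 in L-PVP-NW and -0.52 ± 0.20 in Control. The L-SiO2-NW arrays stood at 0.17, -0.07, -0.27 and 0.51, so L-SiO2-NW 4 reaches the Ag+ level and L-SiO2-NW 3 is level with Control 4 at -0.27. L-PVP-NW A to D stood at -0.60, -0.46, -0.07 and -0.38, and S-PVP-NW at -0.25, 0.22, -0.04 and -0.28. Within its group, L-SiO2-NW 4 was the highest array for 96 of the 112 members, L-PVP-NW C for 89, S-PVP-NW 2 for 85 and Control 4 for 70. The share of all features above the dim limit was also highest in its group on L-PVP-NW C (31.6%), S-PVP-NW 2 (33.2%) and Control 4 (31.6%). On L-SiO2-NW 4 it was 35.1%, against 35.8% on L-SiO2-NW 1. How far such array-wide differences account for the joint movement was not tested. The level and the array floor had a correlation of -0.43 over the 24 arrays, and after group means were subtracted -0.18.

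**Figure D4:**
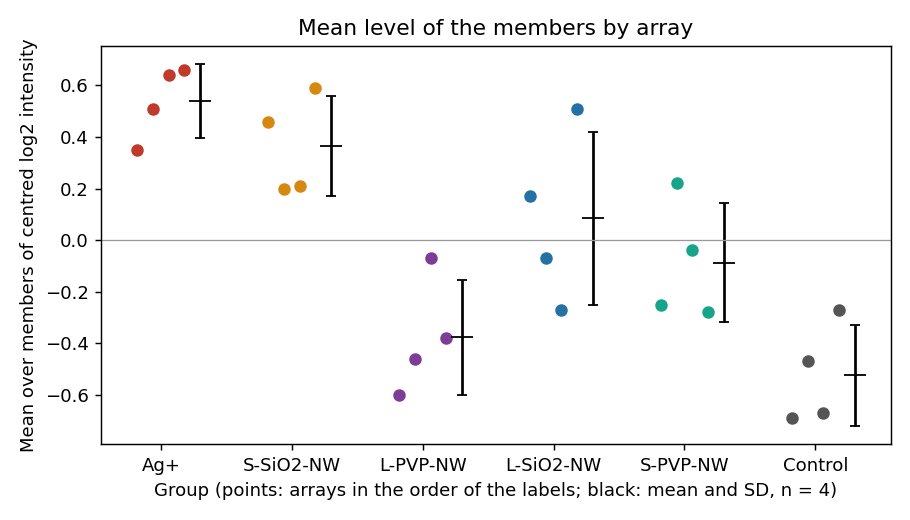
Points give, for each array, the mean over the 112 members of log2 intensity centred on each member's own mean; black marks give the group mean and SD (n = 4). Ag+ (0.35 to 0.66) and S-SiO2-NW (0.20 to 0.59) lie above Control (-0.69 to -0.27) by the selection, and L-SiO2-NW spreads from -0.27 to 0.51.

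The same holds between pairs of members. Over 6216 pairs the median correlation was 0.74 on all 24 arrays, which includes the contrast that chose them, and 0.63 on the 12 arrays of the 3 exposures outside the selection. After group means were subtracted it was 0.49 over 24 arrays and 0.63 over those 12. Among pairs of the 493 described features with a match of E 0.001 or less the medians were 0.01, 0.01, 0 and 0.02. Among pairs of the 57 described features that meet the numeric rule they were 0.64, 0.52, 0.38 and 0.53, in the same order. Pairs that join a member with a described feature of this kind had medians of 0.67, 0.56, 0.4 and 0.57. High pair correlations were therefore not confined to the undescribed members. All of these pairs share the same arrays, RNA samples and normalisation. The 493 features hold both directions: over 24 arrays, 97 correlated with the members' mean above 0.5 and 151 below -0.5. Signed medians near 0 among their pairs therefore do not show how strongly they moved together. Each member was also set against the mean of the other members over the 12 arrays: the median correlation was 0.84, and 5 members were below 0. The lowest were DM10998P3 at -0.44, DM12332P3 at -0.23, DM11189P3 at -0.20 and DM13184P1 at -0.10.

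Described features with the closest profile were mostly ones that meet the same numeric rule. Over 24 arrays, 28 of the 493 correlated with the members' mean at 0.8 or more and 59 at -0.8 or less, and 11 of the 20 closest meet the rule themselves, for which this is built in. The closest were DM02296P3, similar to the fly gene CG7986 (r = 0.96), DM05863P1, a predicted protein (0.95), DM00271P2, listed as MAD homolog 5, a relay of bone morphogenetic protein signals in vertebrates (0.94), and DM00670P2, listed as thioredoxin reductase 1, which keeps thioredoxin reduced (0.93). They were followed by DM02529P2 (0.92), DM01929P2, a putative serine proteinase that does not meet the rule (0.91), DM02577P2, similar to the fly gene CG13313 (0.91), and DM01111P1 (0.88). After group means were subtracted the closest were DM00271P2 (0.94), DM05863P1 (0.90), DM02296P3 (0.89) and DM00884P2 (0.89), which is similar to MCM7, a subunit of the replicative helicase. DM00884P2 averaged 70.3, close to the median of all features.

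At the other end stood transcripts of the translation machinery and the cytoskeleton. The most negative over 24 arrays were DM02018P1, acidic ribosomal protein P1 of the large subunit stalk (r = -0.97), DM01657P4, ribosomal protein L7 (-0.96), DM02014P1, beta actin (-0.95), and DM01412P2, an unnamed protein product (-0.94). After group means were subtracted they were DM02018P1 (-0.95), DM02014P1 (-0.94), DM01412P2 (-0.90) and DM01552P3, an actin (-0.89).

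**Figure D5:**
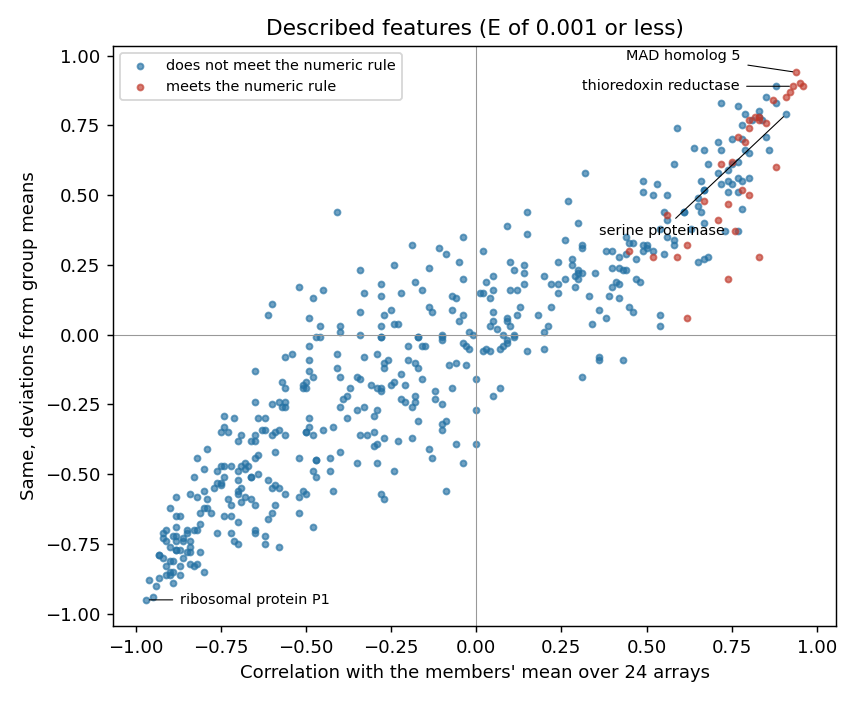
Each point is 1 of the 493 described features with a match of E 0.001 or less; the horizontal axis is its correlation with the members' mean over 24 arrays and the vertical axis the same after group means were subtracted, with red for features that meet the numeric rule. MAD homolog 5 and thioredoxin reductase lie at the top right (r of 0.94 and 0.93), and ribosomal protein P1 at the bottom left (-0.97 and -0.95).

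The 57 described features that meet the numeric rule moved with the members. Their mean level and that of the members correlated at 0.98 over the 12 arrays outside the selection and at 0.90 over 24 arrays after group means were subtracted. Their median difference from Control was 0.37 in L-PVP-NW, 0.67 in S-PVP-NW and 0.92 in L-SiO2-NW, against the members' 0.09, 0.46 and 0.62. Without Control 3 these were 0.14, 0.49 and 0.72 in the described features, against 0.07, 0.41 and 0.58 in the members, and 45 of the 57 kept both selecting differences at 0.7 or more; no difference between the sets was tested. DM01627P1, polyubiquitin, a precursor of the protein tag for degradation, read 16354, 11791, 14687 and 14441 in Ag+, 12762, 15340, 12326 and 19491 in S-SiO2-NW, and 8807, 10424, 53 and 10908 in Control. Its differences of 2.66 in Ag+ and 2.30 in S-SiO2-NW rest on the dim Control 3 and were 0.77 and 0.41 without it. Others with a match of E 0.001 or less include DM02802P1, NADH dehydrogenase subunit 5 of the mitochondrial respiratory chain, with 1.63 in Ag+ and 1.27 in S-SiO2-NW. DM00109P1, similar to the catalytic subunit of casein kinase 2, had 1.44 and 1.15 (1.02 and 0.73 without Control 3), and thioredoxin reductase DM00670P2 had 1.06 and 1.14. DM02577P2 had 2.18 and 1.80, DM02776P1, listed as the fly protein CG14959, 3.01 and 1.16, and DM00876P2, listed as folate receptor 1, 1.17 and 1.39 (0.37 and 0.59 without Control 3).

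Described features were also grouped by words in their descriptions. All 27 ribosomal protein features fail the rule and their median correlation with the members was -0.80 over 24 arrays, and the 10 muscle and cytoskeleton features had -0.79. Cuticle (19 features, median -0.48), vitellogenin, the yolk precursor (10, -0.18), and hemoglobin (5, -0.29) also held no feature that meets the rule. The rule was met by 2 of 5 ubiquitin and proteasome features (median 0.29), 1 of 5 redox and detoxification features (0.12) and 1 of 3 respiratory chain features (-0.80). Digestive enzymes (21, 0.02), chaperones (4, -0.54) and opsin and arrestin (3, 0.65) held none, and no feature with such a match was described as a metallothionein. Against Control, 1 of the ubiquitin and proteasome features rose and 2 digestive enzyme features fell in L-SiO2-NW. Of all features, 0.6% were called higher and 0.37% lower there. The one that rose, DM00219P2, meets the numeric rule, which asked for low values on the same Control arrays. In S-PVP-NW 12 cuticle, 2 vitellogenin and 1 redox feature fell, where 0.286% of all features were called higher and 1.09% lower. These lists held no other call in the 2 comparisons.

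Of the members, 3 match the same Daphnia pulex assembly as a feature with a description. Their partners are shown here, in the order of the table and with strand likewise unstated, for comparison with the member sequences above.
DM05852P1: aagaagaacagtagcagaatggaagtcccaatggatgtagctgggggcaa
DM04416P2: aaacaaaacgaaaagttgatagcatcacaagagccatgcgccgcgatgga
DM04939P4: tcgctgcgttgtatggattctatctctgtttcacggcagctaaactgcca
DM12406P2 and DM05852P1 match overlapping stretches of 1 assembly, positions 234 to 508 (E 2E-88) and 157 to 508 (E 3E-86). DM05852P1 is listed as similar to Cyclin G, a regulator of growth and the cell cycle in flies, with a protein match of E 0.00003. It read 355, 170, 218 and 430 in L-SiO2-NW, against 85, 90, 178 and 92 in L-PVP-NW and 101, 118, 54 and 196 in Control. As in DM12406P2, the L-SiO2-NW arrays are the high ones, although L-PVP-NW C and Control 4 overlap with L-SiO2-NW 2. It rose in L-SiO2-NW by 1.10 ± 0.24 against L-PVP-NW (limma adjusted p = 0.0134), and its correlation with DM12406P2 was 0.97 over the 12 arrays outside the selection.

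DM12364P4 and DM04416P2 match neighbouring stretches of another assembly, positions 937 to 998 (E 3E-12) and 1084 to 1157 (E 2E-19). DM04416P2 is listed as similar to a DEAD box RNA helicase, an enzyme family that unwinds RNA, but its protein match has an E of 1.3, so the name is weak. It read 3048, 3252, 5574 and 7017 in Ag+, 2569, 2314, 1310 and 7062 in S-SiO2-NW, and 955, 1364, 1287 and 1212 in Control. Its correlation with DM12364P4 was 0.98 over the 12 arrays and 0.94 over 24 after group means were subtracted. It does not meet the numeric rule: its difference from Control was 1.5 in Ag+ but 0.58 in S-SiO2-NW, and S-SiO2-NW 3 lies below Control 2 in intensity. Another entry for this assembly, DM05866P2, lies at 1319 to 1231 in the opposite orientation and is listed as p68 RNA helicase (E 0.00004). It averaged 63.8, below the median of all features, and read 54, 61, 47 and 53 in Ag+ and 72, 75, 62 and 77 in Control, so it does not follow the member. DM12516P1 and DM04939P4 match apart from each other on a further assembly, at 192 to 311 (E 7E-27) and 374 to 686 (E 1E-29). DM04939P4, a predicted protein with a protein E of 3.5, rose in L-SiO2-NW against L-PVP-NW by 1.21 ± 0.25 (limma adjusted p = 0.00906) and correlated with DM12516P1 at 0.88 over the 12 arrays. DM04939P4 itself meets the numeric rule, with differences of 1.34 in Ag+ and 1.37 in S-SiO2-NW. Pairs of a member and a described feature of this kind had a median correlation of 0.56 over the same arrays.

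The authors' deposited table gives log2 ratios over Control for some of the 30 listed members. It lists a ratio for 16 members in Ag+ (0.6 to 1.9), 21 in S-SiO2-NW (0.3 to 1.5), 4 in L-PVP-NW (0.4 to 0.9), 6 in S-PVP-NW (0.3 to 0.9) and 10 in L-SiO2-NW. Of all 1826 features there, 690, 562, 277, 623 and 519 have a ratio, in the same order. Positive Ag+ and S-SiO2-NW ratios follow in part from the selection, and all ratios share its Control arrays. Of the 10 L-SiO2-NW ratios of members in the authors' deposited table, 9 are positive, with 1.6 for DM12524P2 and 1.1 for DM12406P2, and the negative one is DM10998P3 at -1.5. A feature with no ratio in that table cannot be read as unchanged, because the sources used here do not state the threshold for listing.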

How the data were processed

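The deposited intensity values are Cy3 scanner intensities, whole numbers up to 65535 with no scaling between arrays, as the authors deposited them. Per the labels' protocols, Trizol RNA (300 ng per array) was labelled by the Agilent Quick-Amp protocol. The log2 ratios in the authors' deposited table are exposures over media control, rounded to 1 decimal, with a test and threshold that no source used here states. The E scores there are, per the file headers, from searches of NCBI proteins and Daphnia pulex assemblies.

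Zeros were set missing, and intensities were put on the log2 scale without background correction and quantile-normalised over 24 arrays in R 4.3.3, so that every difference is on the scale of the selection. Limma 3.58.1 fitted 1 mean per group over all 24 arrays, with eBayes without trend (prior df 1.71), and two-sided tests. The p-values were adjusted by Benjamini-Hochberg over 14338 features, with a threshold of 0.05, and each SE is that of the limma contrast. The number of arrays limits the precision. A simulated data set with known changes was used to check the fit.

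The members and all gene lists were chosen with earlier results of these data known. Named members are the 8 brightest, the 6 with the largest smaller-of-2 difference, those next to the limit, the 3 dimmest and up to 5 per direction and comparison among those that passed (2 with the smallest p where none passed). Pairs on a shared assembly and the members least like the rest were chosen after their values were seen. Of 1024 described features, the 493 with a match at E 0.001 or less were used for correlations and lists. The labels do not say what replicate numbers share. All 4 same-numbered pairs had correlated deviations above 0.1 between Ag+ and Control (0.13 to 0.41) and between Ag+ and S-SiO2-NW (0.26 to 0.43), groups of the selection that are not tested against each other. In the comparisons tested, 3 of 4 pairs did so for L-SiO2-NW with S-PVP-NW and 0 of 4 for either of them with Control, so numbers were not taken to pair those samples. Alternatives were normexp with an offset of 50, median and 75th percentile centring, leaving out the dimmest features (the lowest 25% by mean), trend and robust eBayes, only the arrays compared, a replicate block, leaving out each array, and, added after the data were seen, the array floor as a covariate and Control 3 left out of the selecting differences.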

Additional observations from a re-analysis of the deposited data

Results flagged for a closer look

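In 204 groups of 4 arrays tested for the 34 named members, 10 held 1 array far from the other 3 (4.9%); chance gives about 1 in 20. All values are normalised log2 intensities. On Ag+ 1, DM12602P2 read 5.94 and DM12452P2 7.4, both below the other Ag+ arrays. On S-SiO2-NW 3, DM09687P4 read 7.97, low for its group. On L-SiO2-NW 2, DM10998P3 read 9.3, above the other L-SiO2-NW arrays, of which the nearest read 7.87. On S-PVP-NW 2, DM12364P4 read 11.93 and DM12452P2 7.62, both high, and on S-PVP-NW 3 DM12524P2 read 8.2, low. In Control, DM07937P1 read 10.96 on Control 3 with the nearest array at 12.87, DM12364P4 read 11.07 on Control 2, high, and DM11242P3 read 6.36 on Control 1, low.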

How the results depend on the processing

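Of the 144 medians recomputed with 1 array left out, all moved by less than the spread between replicates: 0 to 0.19 for L-PVP-NW minus Control, 0.48 to 0.73 for L-SiO2-NW minus Control, 0.37 to 0.54 for S-PVP-NW minus Control, 0.32 to 0.61 for L-SiO2-NW minus L-PVP-NW, 0.24 to 0.44 for S-PVP-NW minus L-PVP-NW and 0.01 to 0.25 for L-SiO2-NW minus S-PVP-NW. Leaving out 1 of 4 arrays can move a group mean by only part of that spread, so the comparison with it does not measure robustness. Counts of members past the test moved more: 0 to 0, 0 to 25, 0 to 10, 3 to 28, 0 to 6 and 3 to 7 in the same order. The highest came without Control 4 (25 and 10), L-SiO2-NW 3 (28) and Control 1 (6). Median centring gave medians of 0.96 for L-SiO2-NW minus Control, 0.70 for S-PVP-NW minus Control, 0.85 for L-SiO2-NW minus L-PVP-NW and 0.60 for S-PVP-NW minus L-PVP-NW. For L-SiO2-NW minus Control, members past the test numbered 3 with trend and robust eBayes, 0 with only the arrays compared and 0 after adding each array's floor as a covariate. Of all features, 57, 2 and 0 were called there. For S-PVP-NW minus Control the members past the test numbered 0 under each of these, with 173, 96 and 1 of all features called. They numbered 5 with the replicate number as a block (193 of all features). The block left L-SiO2-NW minus Control at 7 (117 of all features) and could not be fitted for the lettered L-PVP-NW. For L-SiO2-NW minus L-PVP-NW they numbered 34 with 75th percentile centring, 4 with only the arrays compared and 0 with the floor. In that comparison 5733, 355 and 0 of all features were called. For S-PVP-NW minus L-PVP-NW the members numbered 1 with 75th percentile centring, 5 without the dimmest features, 0 with trend and robust eBayes, 1 with only the arrays compared and 0 with the floor. Of all features, 270, 363, 187, 188 and 0 were called there. The floor left L-SiO2-NW minus S-PVP-NW at 6, with 345 of all features called. The rule itself took 606 features under median centring, 106 of them members, 154 under 75th percentile centring (78 shared), 97 with normexp (all members), 245 at a limit of 0.5 and 11 at a limit of 1. The share of rises among all calls moved with the scaling: for L-SiO2-NW minus L-PVP-NW it was 56.4%, 61.2% with median centring and 8.81% with 75th percentile centring, which moves the median of all features by -0.43; for L-SiO2-NW minus Control 61.9%, 76.9% and 43.8% (-0.39); for S-PVP-NW minus Control 20.7%, 68.5% and 39.5% (-0.28); for S-PVP-NW minus L-PVP-NW 35.7%, 72.1% and 44.1% (-0.31). The cause was not tested. Signal near the floor limits the 24 members that were dim on all Control arrays.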
